A study of Homo sapiens with 18 samples.

Results

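SW480-LM3 is a cell population obtained from SW480, an established human colorectal carcinoma line, by 3 rounds of selection for spread after injection into the spleen, and SW480-P is its stated parent. Poly(A) RNA from 3 SW480-LM3 and 3 SW480-P libraries was compared, 6 of the 18 libraries in the series. Every gene with a normalised count of 1 or more in at least 3 of these 6 libraries was included, which held 14527 of the 15543 genes listed. A further group, LV5, the control of SW480 cells made to overexpress NID1, served as a second set of SW480 libraries for reading single genes. Both compared groups are given as human colorectal cancer cells with no treatment, so genotype and treatment are shared as far as the labels go. The labels name neither the host animals nor the organ from which the selected cells were taken, and do not say whether SW480-LM3 is 1 clone or a pool. Whether the replicates came from separate cultures is not stated, so p-values rest on the spread among libraries alone, and that spread may be technical. The series states that the comparison was made to study the characteristics of metastatic cells.

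The lining of the intestine is renewed from stem cells at the base of the crypts, whose daughters become absorptive enterocytes, mucus-secreting goblet cells or hormone-secreting enteroendocrine cells. Transcription factors such as HNF4A and those of the CDX family act in the absorptive programme. Notch signalling between neighbours holds back the secretory fates, and Eph receptors with their ephrin ligands keep crypt cells in position. SW480 is known as a poorly differentiated line, and colorectal tumours that reach the liver meet hepatocytes, stellate cells and the liver's own blood and immune cells.

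The SW480-P libraries held 15504205 to 18965163 recovered reads and the SW480-LM3 libraries 15531517 to 16586016. Across genes, Pearson's r of log2 values was 0.9949 to 0.9962 within groups and 0.7563 to 0.7662 between them. A gene was called when limma gave a Benjamini-Hochberg adjusted p under 0.05, which 87.8% of tested genes met, 43.9% as higher and 43.9% as lower. For 87.6% of tested genes, SW480-LM3 and SW480-P values did not overlap. Because almost every gene was called, members of gene lists were counted only when they were also at least 1 log2 unit higher or lower. That rule took 23.9% of all genes as higher and 21.4% as lower (3479 and 3113 genes), 45.4% in all, and each list below is to be read against these shares. With library totals as the scale the split was 4311 higher and 2340 lower, and the median of all genes moved from -0.004 to 0.26 on the log2 scale. Log2 differences are of the value plus 1 and so understate changes of genes near 0. A gene with 0 reads throughout 1 group was included only through the other group. Its difference of at least 1 log2 unit then followed from the rule of inclusion. NID1, which encodes the basement membrane protein nidogen 1 that the series is about, was at 0.57, 0.582 and 0.352 in the SW480-P libraries and at 44.7, 49.1 and 46.9 in the SW480-LM3 libraries. The groups did not overlap for NID1 (log2 difference 4.999, SE 0.12, limma adjusted p = 1.3e-14).

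Among the transcription factors of the intestinal epithelium, SW480-LM3 had far higher levels of HNF4A, FOXA2, FOXA3 and EHF, while CDX2 and GATA6 were not called. Of 22 such factors tested, 11 were at least 1 log2 unit higher and 5 at least 1 lower, with a median log2 difference of 1.04. HNF4A, a nuclear receptor that drives enterocyte and hepatocyte genes, was at 4.56, 5.36 and 4.65 in SW480-P and at 129, 129.8 and 126 in SW480-LM3. All SW480-LM3 libraries lay above all SW480-P libraries, a 26.4-fold rise (log2 difference 4.47, SE 0.08, limma adjusted p = 4.96e-16). The pioneer factor FOXA2, which opens chromatin in gut and liver, rose 123-fold, from 0.611 ± 0.163 to 75.1 ± 3.4 (mean ± SD, n = 3). Its relative FOXA3 rose from 0.204 ± 0.0847 to 26.5 ± 1.66, and EHF, an ETS factor of epithelial cells, from 0.606 ± 0.342 to 128 ± 3.63. MYB, a factor of proliferating crypt cells, rose 31.4-fold, to 86.8 ± 2.997.

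Other factors of the same list moved the opposite way or showed no call. CDX2, the factor that gives the intestine its identity, was at 19.4, 14.3 and 15.5 in SW480-P and 15.9, 17.4 and 19.8 in SW480-LM3, and the libraries overlapped (log2 difference 0.11, SE 0.12, limma adjusted p = 0.361). With library totals as the scale, CDX2 was called as higher, and with quantile normalization its difference changed sign. KLF4, a factor of differentiated surface cells, fell from 54.3 ± 0.911 to 13.8 ± 1.34, whereas KLF5, which is active in crypts, rose from 44.2 ± 2.31 to 311 ± 2.91. SOX factors had 8 of 10 members higher and 0 lower, with a median log2 difference of 2.69. SOX9, a factor of crypt stem and progenitor cells, rose 21.3-fold, from 8.37 ± 0.75 to 178 ± 5.42. SOX2, which marks foregut and stem cells and is not a usual gene of the colon, was at 0.854, 0.582 and 0.916 in SW480-P and 82.4, 87.1 and 84.4 in SW480-LM3. SOX4 rose from 29.1 ± 1.01 to 357 ± 10.2, and the homeobox factor PROX1, known from intestinal tumour progression and lymphatic vessels, from 4.997 ± 0.249 to 163 ± 5.1. Of 18 ETS factors 9 were higher and 0 lower by the same rule. Homeobox factors outside the HOX clusters were mixed, with 25 higher and 19 lower of 67. Among them SATB1, a chromatin organiser, rose from 0.954 ± 0.576 to 21.5 ± 1.56.

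**Figure D1:**
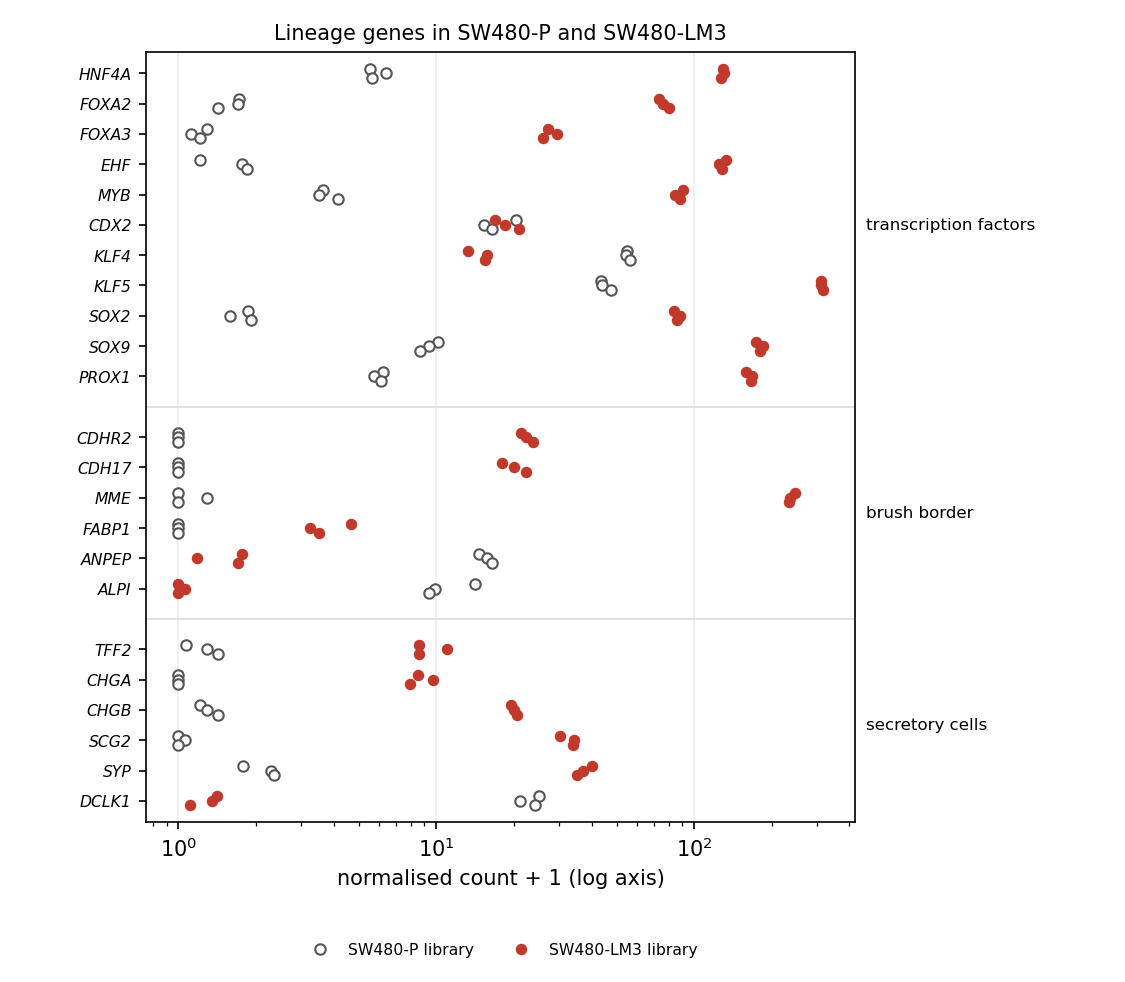
Normalised counts (plus 1, log axis) of lineage transcription factors and epithelial differentiation genes in each library, with 3 SW480-P libraries as open circles and 3 SW480-LM3 libraries as filled circles. The symbols separate for all genes shown except CDX2, and KLF4, ANPEP, ALPI and DCLK1 lie lower in SW480-LM3.

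Genes of the brush border, the carpet of microvilli on absorptive cells, were mostly higher in SW480-LM3, 15 of 17 tested, with 2 lower and a median log2 difference of 2.07. The list was written with 40 genes, of which 20 were in the data. Members with 0 reads in SW480-P were included only through SW480-LM3, so their place among the higher genes was fixed in advance. Of the 13 with a mean of at least 5, which can still hold such members, 11 were higher and 2 lower. CDHR2, a protocadherin that ties microvillus tips together, had 0 reads in all 3 SW480-P libraries and was at 20.4, 21.2 and 22.7 in the selected cells, at least 324-fold higher when 0 reads are taken as at most 3 over the group. USH1C, the harmonin scaffold beneath these links, rose from 9.18 ± 1.13 to 151 ± 6.01, and was singled out after its values were seen. CDH17, the liver-intestine cadherin, also went from 0 reads to 19.1 ± 2.2. FABP1, a fatty acid binding protein of enterocytes and hepatocytes, had 0 reads in SW480-P and 3.66, 2.22 and 2.5 in SW480-LM3. Both members that fell past the rule encode surface enzymes of mature enterocytes. ANPEP, aminopeptidase N, was at 13.7, 14.8 and 15.4 in SW480-P and at 0.756, 0.176 and 0.705 in SW480-LM3. ALPI, intestinal alkaline phosphatase, was at 13.1, 8.91 and 8.39 in SW480-P and had 1 read in a single SW480-LM3 library. Not all such enzymes were lower, since MME, the peptidase neprilysin, rose from 0.097 ± 0.168 to 237 ± 6.65.

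Most of the secretory lineage genes tested were also higher in SW480-LM3, but many genes written for these lists were not in the data. Of 32 goblet and Paneth cell genes written, 9 were in the data. Of the 8 tested 6 were higher and 1 lower (median log2 difference 1.83). Their levels were low: 2 had a mean of at least 5, with 1 higher and 0 lower. With a pseudocount of 5, 3 of the 8 were higher and 0 lower. In this list and the next, members under 1 in all SW480-P libraries were included only through SW480-LM3, which fixed their direction in advance. TFF2, a trefoil peptide that protects mucosa, rose from 0.262 ± 0.178 to 8.37 ± 1.42, and lysozyme (LYZ), an antibacterial enzyme of Paneth cells singled out after its values were seen, rose from 0.274 ± 0.244 to 7.05 ± 0.845. Of 13 enteroendocrine and tuft cell genes, from 31 written, 8 were higher and 3 lower (median 2.03). CHGA, the chromogranin of hormone granules, had 0 reads in SW480-P and was at 7.5, 8.72 and 6.94 in SW480-LM3. Its relative CHGB rose from 0.309 ± 0.106 to 19.01 ± 0.544, the granule protein SCG2 from 0.0193 ± 0.0335 to 31.8 ± 2.15, and the vesicle protein synaptophysin (SYP) from 1.13 ± 0.306 to 36.4 ± 2.58. DCLK1, a kinase that marks tuft cells, ran the other way, from 24.1, 20.2 and 23.2 in SW480-P to 0.407, 0.351 and 0.108 in SW480-LM3. Stem cell receptors split: LGR5, the R-spondin receptor of crypt stem cells, rose from 0.0237 ± 0.041 to 56.7 ± 3.6, and its relative LGR4 fell from 114 ± 5.21 to 12.2 ± 0.908.

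Liver-enriched genes were divided. Of 13 secreted liver products and enzymes tested 5 were higher and 2 lower, with a median log2 difference of 0.89. Coagulation factor X (F10) rose 37.7-fold, from 0.823 ± 0.112 to 31.03 ± 1.18. SERPINA1, the alpha-1 antitrypsin gene, rose by less than 1 log2 unit, from 51.5 ± 3.06 to 95.9 ± 1.26. CPS1, the mitochondrial enzyme that starts the urea cycle, fell from 613 ± 20.7 to 0.057 ± 0.0586 and made most of the list's summed level in SW480-P, which was 677 to 717 there and 167 to 169.9 in SW480-LM3.

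Markers of cells other than epithelium were read across both groups, since in bulk RNA fewer cells of a type and less RNA per cell cannot be told apart. Of 12 leukocyte genes tested 5 were higher and 2 lower, and the summed level of the 13 listed was 71.4 to 75.3 in SW480-P and 666 to 679.9 in SW480-LM3. LCP1, an actin-bundling protein that many carcinomas also express, made most of that sum, with 519.8 ± 6.5 in SW480-LM3 against 0.129 ± 0.053. PTPN6, a phosphatase of blood and epithelial cells, rose from 6.39 ± 0.51 to 48.2 ± 1.63. Of 5 fibroblast genes tested 2 were higher and 0 lower. LUM, the matrix proteoglycan lumican, had 0 reads in SW480-P and 19.1, 15.8 and 19.5 in SW480-LM3. COL1A1, the main collagen of fibroblasts, rose from 1.46 ± 0.296 to 2.95 ± 0.647, less than 1 log2 unit of the value plus 1. The summed level of the 7 listed fibroblast genes was 552 to 578 in SW480-P and 683 to 727 in SW480-LM3. ESAM, an endothelial junction protein, was the only endothelial gene tested and fell from 32.2 ± 1.39 to 0.206 ± 0.108. Neural and axonal genes had 11 of 18 higher and 5 lower (median 1.52), with summed levels of 867 to 902 and 1046 to 1068. DPYSL3, a cytoskeletal protein of growing axons, rose 102-fold, from 2.76 ± 0.892 to 282 ± 1.98, and SYT1, a calcium sensor of synaptic vesicles, rose 12.3-fold, to 167 ± 7.04. CADM1, an adhesion molecule of neurons and epithelia, fell from 64.5 ± 2.52 to 2.29 ± 0.313. The part of other cell types in the results above was not tested.

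Genes listed in 1 group and nearly silent in the other were set beside LV5, because LV5 carries the same SW480 label. Tables of the 2 experiments were normalised separately, so LV5 values, which are length-scaled transcript shares (TPM), show presence only and no test was run between them. In all, 131 genes had a mean under 0.5 in SW480-LM3 and of at least 20 in SW480-P, and 57 genes had the reverse pattern. Of the 131, 126 were in the LV5 table and 123 (97.6%) reached 1 TPM in all 3 LV5 libraries. Of the 57, 50 were in that table and 3 (6%) did so, while 46 (92%) were under 1 TPM in all 3 libraries. For all tested genes the share at 1 TPM or more was 86.4% (12194 of 14116), and the share under 1 TPM in all 3 libraries was 10.9% (1536). The 131 genes were picked for a mean of at least 20 in SW480-P and the 57 for a mean under 0.5 there. No background of genes at a like SW480-P level was drawn, so neither the 97.6% nor the 92% has a matched share beside it. The median LV5 level was 35.8 TPM for the 131 genes and 0.07 TPM for the 57. Most of these genes, picked by their SW480-P level, were alike in presence in LV5 and SW480-P and unlike in SW480-LM3. DCLK1, MAOA and IQGAP2 were the 3 exceptions among the first set and DPEP1, MFNG, TOX3 and CALB1 the 4 among the second, a list that follows from the values. Change during selection and a different origin of the SW480-LM3 libraries cannot be told apart with these data.

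**Figure D2:**
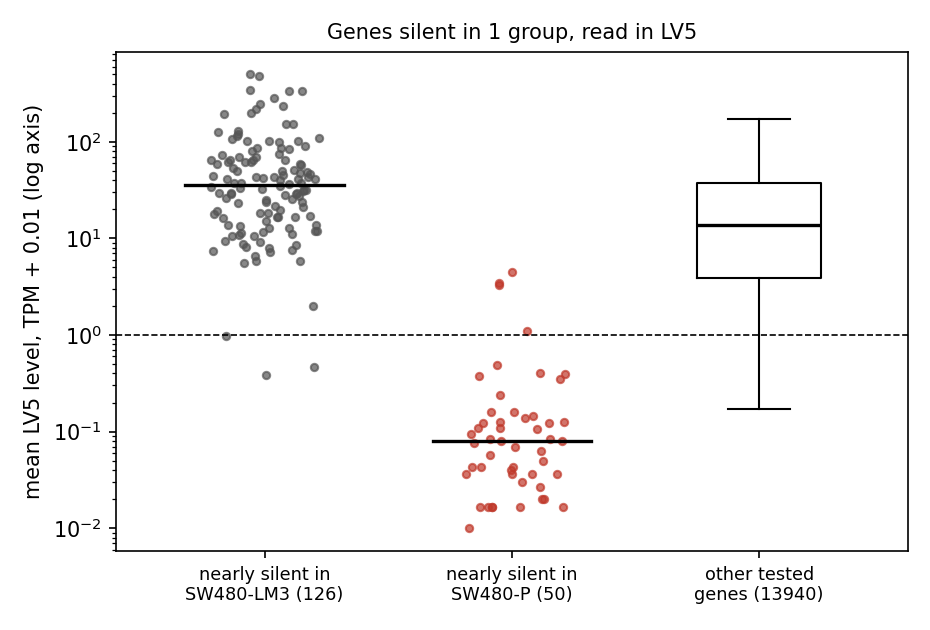
Mean LV5 level (TPM plus 0.01, log axis) of single genes that were nearly silent in SW480-LM3 (126 genes), nearly silent in SW480-P (50 genes) or neither, the last drawn as a box with quartiles and 5th to 95th percentiles. The first set has a median of 35.8 TPM and the second of 0.07 TPM, and the dashed line is 1 TPM.

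Genes that are often altered in colorectal cancer were read for the same reason. SMAD4, the shared mediator of TGF-beta and BMP signals and a tumour suppressor on chromosome 18, was at 38.3, 35.1 and 36.6 in SW480-P and at 0.582, 0.995 and 0.976 in SW480-LM3. It was 43.1-fold lower (log2 difference -4.35, SE 0.13, limma adjusted p = 1.16e-13), and LV5 had 33.9 TPM. Of 26 such drivers tested 9 (34.6%) were higher and 5 (19.2%) lower, against 23.9% and 21.4% of all genes. APC, the brake on Wnt signalling, fell from 83.3 ± 4.13 to 40.2 ± 1.17. ZNRF3 and RNF43, ubiquitin ligases that remove Wnt receptors, rose from 12.7 ± 1.81 and 19.5 ± 1.16 to 158 ± 7.32 and 112 ± 0.762. B2M, the light chain of MHC class I, fell 4.02-fold, from 1405 ± 39.3 to 349.5 ± 9.93. In the mismatch and alkylation repair list 3 of 14 were higher and 3 lower (21.4% each), near the shares of all genes. MGMT, which repairs alkylated guanine and is silenced by methylation in many colorectal tumours, was at 9.61, 9.26 and 8.88 in SW480-P and at 0.116, 0 and 0 in SW480-LM3, with 8.88 TPM in LV5.

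Genes that DNA methylation is known to silence, or to mark by parent of origin, were more often lower than higher in SW480-LM3. All but 2 of 15 cancer-testis antigens tested were lower by at least 1 log2 unit, and the other 2 were higher (median -2.0). Members under 1 in all SW480-LM3 libraries were included only through SW480-P, so their direction was fixed in advance. The summed level of the 16 listed was 330.5 to 339.4 in SW480-P and 7.85 to 9.65 in SW480-LM3. Most of the 15 had low levels: 5 had a mean of at least 5, which can still hold such members, and all 5 were lower. With a pseudocount of 5, 7 of the 15 were lower and 0 higher. MAGEA6 had 0 reads in SW480-LM3 against 127, 122 and 127 in SW480-P, and MAGEA1 0 reads against 79.8, 81.3 and 77.7. Near-identical copies make the split of reads between such family members uncertain. Of 18 imprinted genes, which are expressed from 1 parental copy, 5 were higher and 8 lower, or 6 in each direction with library totals as the scale. H19, an imprinted long noncoding RNA, was at 272, 263 and 246 in SW480-P and at 0.174, 0.41 and 0.325 in SW480-LM3. SNRPN, expressed from the paternal copy, went from 52.7 ± 3.05 to 0 reads, and PEG10, also a paternally expressed gene, rose from 10.4 ± 0.655 to 108 ± 0.63. IGF2, the neighbour of H19, rose from 0.853 ± 0.253 to 3.62 ± 0.937. Of 15 genes of the methylation machinery 6 were higher and 2 lower. TET1, which oxidises methylcytosine, was at 0.214, 0.233 and 0.564 in SW480-P and 15.5, 15.1 and 16.2 in SW480-LM3, and the maintenance methyltransferase DNMT1 rose 4.22-fold, from 60.4 ± 1.71 to 255 ± 3.9.

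Notch pathway genes changed strongly in both directions, so that their median log2 difference was -0.01, with 11 higher and 6 lower of 28. Among ligands, JAG1 rose 15.6-fold, from 8.11 ± 0.876 to 126 ± 4.59, and DLL4 from 0.0387 ± 0.067 to 12.2 ± 0.618, whereas DLL3, a ligand that acts within the cell as an inhibitor, fell from 15.2 ± 0.996 to 1.23 ± 0.182. Among receptors, NOTCH1 was at 15.4, 13.7 and 11.3 in SW480-P and 72.1, 76.8 and 67.9 in SW480-LM3. NOTCH2 ran the opposite way, at 45.1, 46.1 and 49.6 in SW480-P and 4.83, 4.92 and 3.74 in SW480-LM3. Neither receptor overlapped between groups, and NOTCH3 fell with NOTCH2, from 10.2 ± 0.101 to 0.563 ± 0.234. MFNG, a Fringe glycosyltransferase that alters which ligands Notch answers to, rose 284-fold, from 0.404 ± 0.147 to 115 ± 2.28. The readout genes split as well: HES1, a direct Notch target, was at 18.2, 18.6 and 14.7 and 16.1, 17.8 and 15.3 with overlap (limma adjusted p = 0.598). NRARP, a target that feeds back on Notch, fell from 26.1 ± 1.76 to 2.72 ± 0.517, and HES6, which opposes HES1, rose from 4.6 ± 0.679 to 149 ± 1.67.

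Of 24 FGF pathway genes 15 were higher and 5 lower, with a median log2 difference of 1.17. FGF2, a ligand that acts on many cell types, was at 72.5, 76.5 and 78.1 in SW480-P and had 0 reads in SW480-LM3, at least 1330-fold lower. FGF19, the gut hormone that represses bile acid synthesis in liver, rose 5.02-fold, from 29.7 ± 1.21 to 149 ± 4.25. FGFR4, the receptor through which FGF19 acts on hepatocytes, was at 6.12, 5.53 and 5.36 in SW480-P and 125, 127 and 114 in SW480-LM3. Ligand and receptor were thus both higher in the same libraries. FGFR1 rose from 34.6 ± 1.54 to 131 ± 5.51 and FGFR3 fell from 13.3 ± 2.09 to 4.98 ± 0.41. SPRY2 and ETV5, which FGF signals induce, rose 9.02-fold and 6.37-fold, to 74.03 ± 1.94 and 123 ± 2.4. Whether genes induced by FGF rose as a set was not tested.

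Ephrins and Eph receptors, which sort cells along the crypt, had 8 of 18 higher and 5 lower. EFNB2, a transmembrane ligand, was at 3.77, 4.66 and 2.26 in SW480-P and 414, 445 and 452 in SW480-LM3, a 123-fold rise. Its receptors of the crypt base rose as well, EPHB2 from 4.34 ± 0.613 to 172 ± 5.17 and EPHB3 from 0.392 ± 0.157 to 33.2 ± 3.03. EPHB4, a receptor of veins that also binds EFNB2, fell from 32.3 ± 3.1 to 12.5 ± 1.02, and the ephrin-A ligand EFNA1 fell from 51.2 ± 3.14 to 18.4 ± 2.18. Semaphorins, plexins and neuropilins, a guidance system of axons and vessels, had 16 of 26 higher and 3 lower (median 1.55). SEMA3A, a secreted repellent, rose 19.4-fold, from 8.22 ± 0.794 to 159.5 ± 2.9, and its co-receptor relative NRP2 rose 8.36-fold, to 74.1 ± 4.22. SEMA3C was the exception among the secreted members named, at 69.3, 74.8 and 74.9 in SW480-P and 0.407, 0.819 and 0.38 in SW480-LM3. NRP1 fell from 24.1 ± 1.75 to 18.02 ± 2.43, less than 1 log2 unit, and was not called with library totals.

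**Figure D3:**
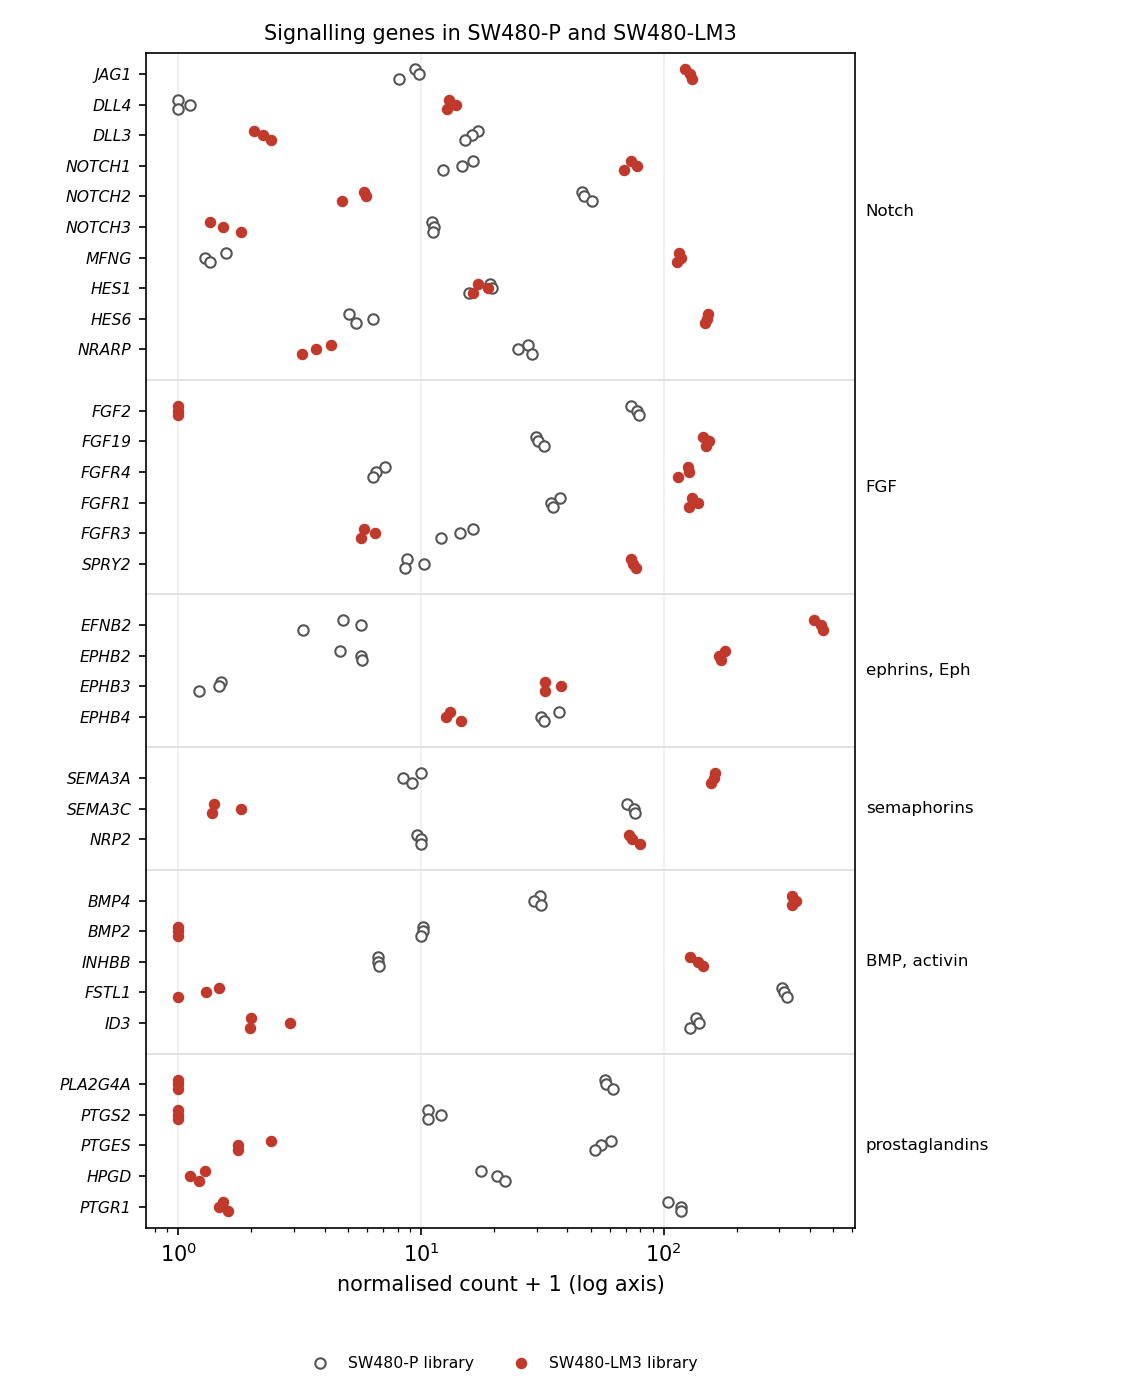
Normalised counts (plus 1, log axis) of signalling genes in each library, grouped by pathway, with SW480-P as open and SW480-LM3 as filled circles. The libraries separate for every gene shown except HES1. Members of the Notch, FGF, ephrin and Eph, semaphorin, and BMP and activin groups lie on both sides.

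BMP and activin genes were also mixed, with 10 higher and 9 lower of 29. BMP4, a ligand that pushes colon stem cells to differentiate, was at 29.8, 28.2 and 30.1 in SW480-P and 336, 350.2 and 338 in SW480-LM3, 11.6-fold higher. BMP2, which uses the same receptors, went from 9.18, 9.14 and 8.95 to 0 reads. INHBB, the activin B subunit, rose 24.1-fold, to 137 ± 8.57, while follistatin (FST), which traps activins, fell from 25.1 ± 1.94 to 0.0197 ± 0.0341. FSTL1, a secreted glycoprotein related to follistatin, fell 1241-fold, from 314 ± 6.71 to 0.253 ± 0.235. The target genes differed: ID3 was at 135, 138 and 128 in SW480-P and at 0.989, 1.87 and 0.976 in SW480-LM3, whereas ID1 fell from 139 ± 7.2 to 118 ± 7.16, a difference that was not called with either other scale and changed sign with library totals. GDF15, a stress-induced member of the superfamily, rose from 3.6 ± 1.01 to 64.8 ± 3.93. In the hedgehog list 5 of 11 were higher and 3 lower, with the receptor PTCH1 up from 17.4 ± 1.19 to 40.7 ± 4.08 and the effector GLI3 down from 10.6 ± 1.07 to 1.74 ± 0.30. In the retinoid list 7 of 18 were higher and 5 lower, with the binding protein CRABP2 down from 61.5 ± 2.49 to 17.4 ± 1.96 and the retinol dehydrogenase RDH10 up from 11.7 ± 0.841 to 102 ± 3.86.

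Prostaglandin and leukotriene genes were mostly lower: 10 of 17 fell by at least 1 log2 unit and 0 rose by as much (median -1.52). Members under 1 in all SW480-LM3 libraries were included only through SW480-P, so their direction was fixed in advance. A single member was at least 1 log2 unit higher with library totals, a pseudocount of 0.1, edgeR or DESeq2, or without SW480-P replicate 2. PLA2G4A, the phospholipase that frees arachidonic acid, was at 56.5, 56.7 and 60.8 in SW480-P and had 0 reads in SW480-LM3. PTGS2, the inducible cyclooxygenase COX-2, was at 9.68, 11.1 and 9.73 in SW480-P and likewise had 0 reads. PTGES, the prostaglandin E2 synthase that works with it, fell 56.7-fold, from 55.1 ± 4.33 to 0.972 ± 0.367. Each of these 3 steps towards prostaglandin E2 was lower in all SW480-LM3 libraries than in any SW480-P library. The enzymes that break prostaglandins down were lower as well, HPGD from 19.1 ± 2.3 to 0.208 ± 0.0873 and PTGR1 from 112 ± 7.96 to 0.529 ± 0.0647. PTGER4, a receptor of prostaglandin E2, fell from 3.99 ± 0.23 to 0.782 ± 0.511.

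**Figure D4:**
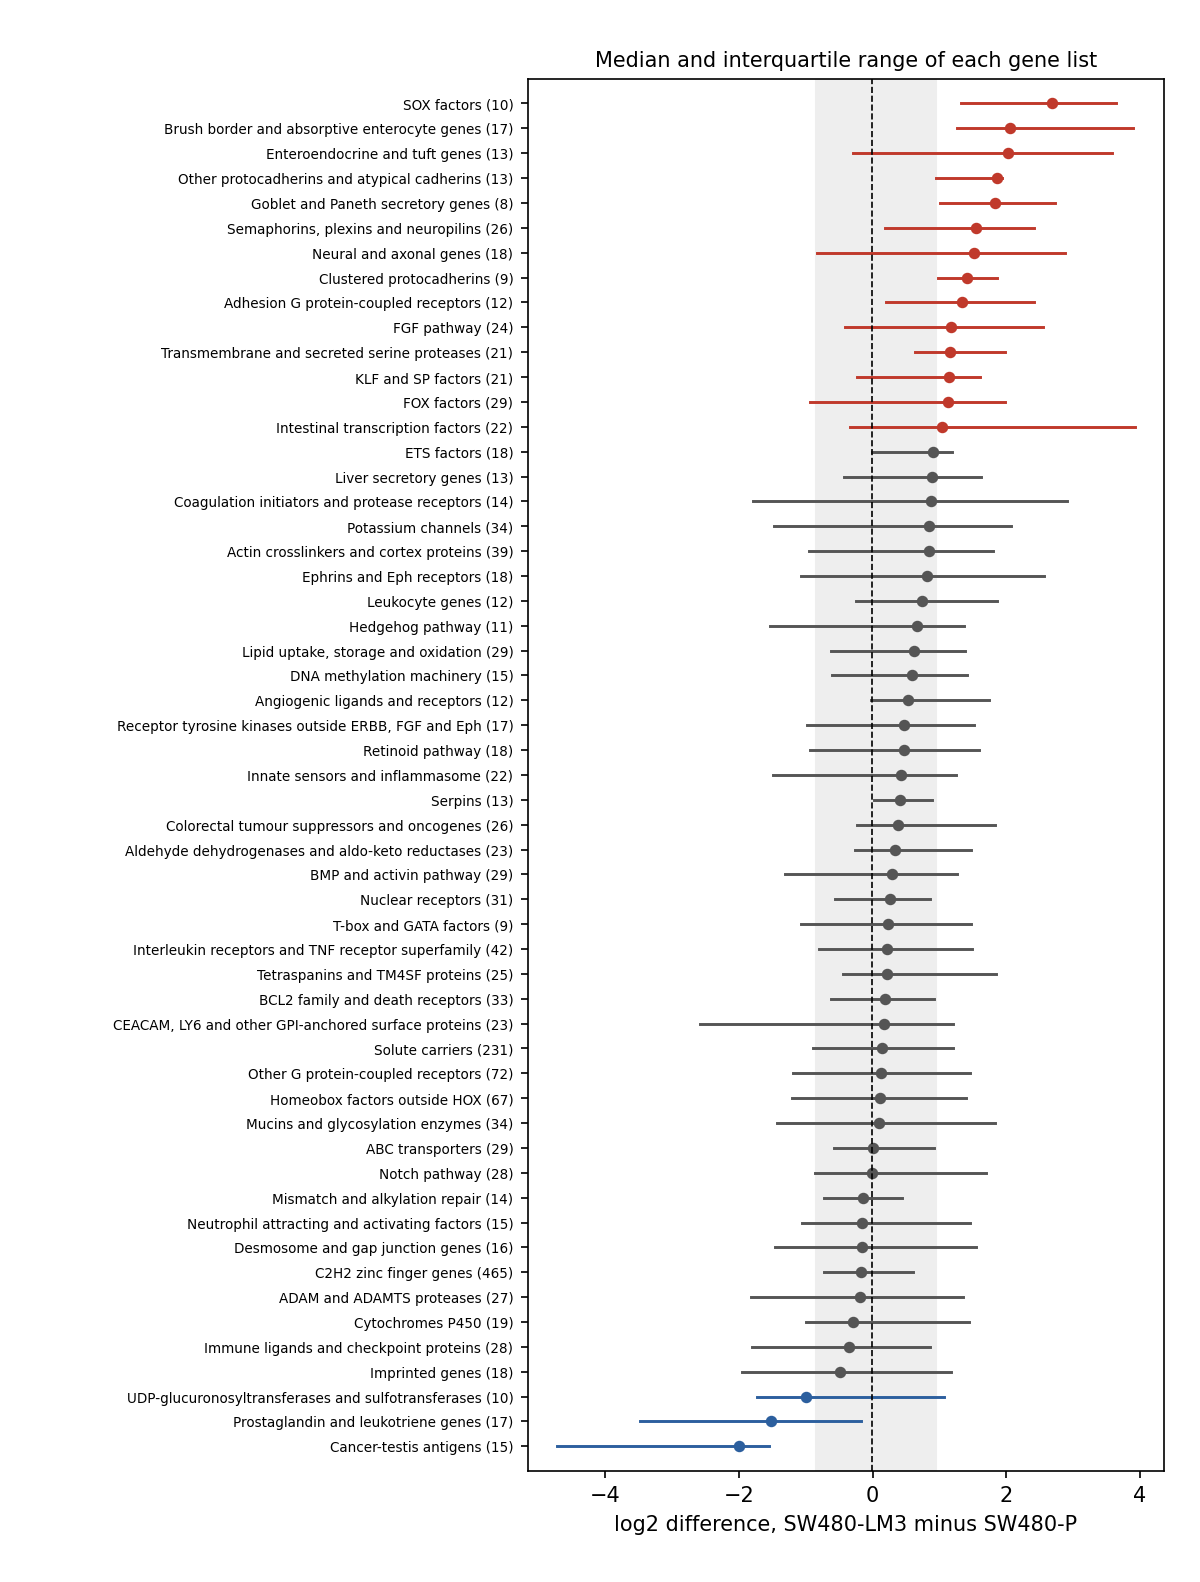
Median log2 difference (SW480-LM3 minus SW480-P, point) and interquartile range (line) of the tested members of each gene list with at least 8 members, with the number tested in brackets, the median of all genes as a dashed line and its interquartile range as a grey band (colours mark medians beyond the band). Brush border and SOX genes lie farthest to the right, cancer-testis and prostaglandin genes farthest to the left.

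Among ligands and receptors of blood vessels 5 of 12 were higher and 2 lower. VEGFA, the chief endothelial growth factor, rose 3.02-fold, from 49.6 ± 3.06 to 149.7 ± 4.92, and PDGFA, a growth factor of stromal cells, rose 5.22-fold, to 112 ± 5.51. Endothelin 1 (EDN1) fell from 17.1 ± 1.44 to 4.34 ± 0.231. Of 17 receptor tyrosine kinases outside the ERBB, FGF and Eph families 6 were higher and 4 lower. PTK7, a pseudokinase of planar polarity and Wnt signalling, rose 20.6-fold, from 9.16 ± 1.69 to 188 ± 9.25. ROR2, a receptor of noncanonical Wnt ligands, was at 13.7, 14.04 and 13.04 in SW480-P and had 0 reads in SW480-LM3. MET, the receptor of the hepatocyte growth factor, rose by less than 1 log2 unit, from 195 ± 4.23 to 271 ± 5.49. AXL fell from 76.8 ± 2.99 to 38.3 ± 1.21, also less than 1 log2 unit of the value plus 1.

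Surface proteins that meet complement and immune cells were lower more often than higher, 10 against 6 of 28, but 9 against 9 with library totals as the scale. CD55, which dissolves complement convertases on the cell's own membrane, was at 1036, 1066 and 1090 in SW480-P and 3.14, 3.33 and 2.93 in SW480-LM3. That fall of 339-fold had a log2 difference of -8.01 (SE 0.05, limma adjusted p = 1.03e-19). CD59, which blocks the membrane attack complex, fell 6.68-fold, from 433 ± 3.06 to 64.8 ± 3.94. NT5E, the ectoenzyme CD73 that makes adenosine, fell from 25.1 ± 1.58 to 0.0933 ± 0.0603, and FAS, a death receptor, from 20.4 ± 0.927 to 1.98 ± 0.26. The death ligand TNFSF10 (TRAIL) rose 13.7-fold, to 30.3 ± 0.609, the galectin LGALS9 from 0.165 ± 0.148 to 16.8 ± 1.2, and PVRL2, a nectin seen by natural killer cells, from 17.4 ± 1.36 to 89.9 ± 5.63. CD274 (PD-L1) fell from 2.51 ± 0.59 to 0.678 ± 0.164. ICAM1, which binds leukocyte integrins, fell 4.99-fold, to 3.96 ± 0.713.

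Secreted factors that act on neutrophils were split, with 5 of 15 higher and 4 lower. The chemokines IL8 and CXCL1 rose 3.37-fold and 5.28-fold, to 18.1 ± 1.37 and 14.8 ± 1.79. LCN2, an iron-sequestering protein of neutrophils and inflamed epithelium, was at 82.4, 87.7 and 84.5 in SW480-P and 0.698, 0.585 and 0.38 in SW480-LM3. CSF2, the granulocyte-macrophage growth factor, was at 1.78, 1.46 and 1.41 and 1.28, 1.58 and 1.19 with overlap (limma adjusted p = 0.447). HMGB1, a chromatin protein that acts as an alarm signal outside the cell, fell from 1290 ± 24.2 to 501 ± 11.97. Receptors of interleukins and the TNF superfamily had 16 of 42 higher and 9 lower. OSMR, the receptor of oncostatin M, was at 53.3, 54.7 and 55.5 in SW480-P and had 1 read in a single SW480-LM3 library, while TNFRSF1B, a TNF receptor, rose 7.96-fold, to 186 ± 4.25. Chemokine receptor CXCR4, whose ligand is made in liver, lung and marrow, was at 23.1, 23.1 and 25.02 in SW480-P and at 1.22, 0.995 and 1.9 in SW480-LM3.

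Proteins tethered to the surface by a lipid anchor were divided, with 8 of 23 higher and 11 lower, or 10 in each direction with library totals as the scale. FOLR1, the folate receptor alpha, fell 34.99-fold, from 1773 ± 54.8 to 50.7 ± 1.53, and tissue alkaline phosphatase (ALPL) fell from 51.5 ± 6.17 to 0.203 ± 0.218. CEACAM1, CEACAM5 and CEACAM6, adhesion proteins of the carcinoembryonic antigen family, rose to 25.4 ± 1.54, 3.42 ± 0.191 and 4.13 ± 0.809. CEACAM5 and CEACAM6 had 0 reads in SW480-P, CEACAM1 was at 0.838 ± 0.0694, and reads of these similar genes may be split between them. Of 34 mucins and glycosylation enzymes 13 were higher and 10 lower: MUC13, a membrane mucin of the gut, fell from 176 ± 2.79 to 58.9 ± 3.15, and MUC1 was not called, at 10.7 ± 0.986 and 12.6 ± 0.762 (limma adjusted p = 0.0605). The list of transmembrane and secreted serine proteases had 13 of 21 higher and 3 lower. TMPRSS2, a membrane protease of gut and prostate, was at 0.925, 0.408 and 0.141 in SW480-P and 56.8, 59.7 and 54.8 in SW480-LM3. SPINT1, an inhibitor of such proteases and of the activator of hepatocyte growth factor, rose 20.03-fold, from 4.99 ± 0.527 to 99.9 ± 4.23. PRSS21 went from 84.4 ± 4.31 to 0 reads and PRSS23 fell 19.4-fold, to 13.2 ± 0.315.

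Protocadherins were more often higher than lower, and junction genes were split. Of 9 clustered protocadherins tested 6 were higher and 0 lower, although 1 was lower with a pseudocount of 0.1, edgeR or DESeq2. Most lay near 0: the summed level of the 13 listed was 3.9 to 5.2 in SW480-P and 52 to 54.1 in SW480-LM3. Only 1 of the 9 had a mean of at least 5, and with a pseudocount of 5 only 1 was higher. Of 13 other protocadherins and atypical cadherins 9 were higher and 1 lower. In both lists, members under 1 in all SW480-P libraries were included only through SW480-LM3, so their direction was fixed in advance. PCDH19 had 0 reads in SW480-P and 125, 119.9 and 112 in SW480-LM3, and FAT1 rose 6.62-fold, to 243 ± 1.74. Of 16 desmosome and gap junction genes 5 were higher and 6 lower. DSP, the plakin that joins desmosomes to keratin, rose 7.61-fold, from 103 ± 2.75 to 783 ± 31.1, and the connexin of hepatocytes and gut, GJB1, rose 6.13-fold, to 155 ± 3.07. GJB2, another connexin, fell from 13.9 ± 1.73 to 3.75 ± 0.377. Of 12 adhesion G protein-coupled receptors 8 were higher and 2 lower, among them GPR56, a receptor of matrix proteins, from 13.5 ± 1.23 to 220.2 ± 6.41. TM4SF1, a tetraspanin-like protein of migrating cells, fell 4.57-fold, from 1066 ± 2.19 to 233 ± 8.17.

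Actin crosslinkers and cortex proteins had 17 of 39 higher and 8 lower. Nonmuscle myosin heavy chain MYH10 was at 9.18, 10.5 and 10.4 in SW480-P and 307, 307 and 314 in SW480-LM3, and MYH9, the other main form, rose 9.62-fold, from 132 ± 10.99 to 1272 ± 48.9. Both contractile chains were higher in every SW480-LM3 library. TPM1, a tropomyosin, fell from 209.8 ± 7.86 to 54.5 ± 1.5. FSCN1, the bundling protein of filopodia, was at 239.6 ± 9.58 and 291 ± 7.24, less than 1 log2 unit apart.

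Transporters as families were near the shares of all genes, 23.9% higher and 21.4% lower. Solute carriers had 64 of 231 higher (27.7%) and 52 lower (22.5%), and ABC transporters 7 of 29 (24.1%) in each direction. The drug exporter ABCB1 fell 4.64-fold, from 30.3 ± 0.713 to 6.54 ± 0.21, and SLC7A2, a transporter of arginine, from 71.6 ± 2.4 to 0.211 ± 0.126. Of 34 potassium channel genes 15 were higher and 11 lower, but of the 11 with a mean of at least 5 the counts were 5 and 6. KCNH2, the hERG channel, was at 0.356, 0.874 and 0.211 in SW480-P and 82.8, 91.7 and 90.2 in SW480-LM3, and KCNE3, a channel subunit of the intestinal epithelium, rose 127-fold, to 85.6 ± 4.77. KCNQ1, the pore to which KCNE3 binds in the gut, fell from 15.7 ± 1.45 to 0.593 ± 0.185, so the 2 partners changed in opposite directions. Of 29 genes of lipid uptake, storage and oxidation 10 were higher and 5 lower. LPL, the lipase that releases fatty acids from lipoproteins, was at 48.2, 47.7 and 51.04 in SW480-P and had 0 reads in SW480-LM3, and PLIN2, the coat protein of lipid droplets, rose 5.24-fold, to 341 ± 18.96. Of 31 nuclear receptors 7 (22.6%) were higher and 5 (16.1%) lower. NR3C1, the glucocorticoid receptor, was at 95.8, 102 and 98.2 in SW480-P and at 0.174, 0.117 and 0.651 in SW480-LM3.

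Genes of cell survival and innate sensing were mixed. Of 33 genes of the BCL2 family and death receptors 6 (18.2%) were higher and 8 (24.2%) lower, near the 23.9% and 21.4% of all genes. BCL2L1, which encodes BCL-XL, rose 3.06-fold, from 140.2 ± 1.94 to 429.6 ± 15.9, and BNIP3, a hypoxia-induced mitophagy receptor, fell 83.1-fold, to 0.71 ± 0.367. MCL1 was not called, at 216 ± 4.52 and 219 ± 6.66 (limma adjusted p = 0.655). Of 22 innate sensors and inflammasome genes 8 were higher and 9 lower. IL18, an inflammasome cytokine of the gut epithelium, was at 70.7, 74.7 and 77.4 in SW480-P and at 1.34, 0.819 and 2.01 in SW480-LM3. MB21D1, the cytosolic DNA sensor cGAS, fell 149.6-fold, from 19.5 ± 1.87 to 0.131 ± 0.0804. DDX58 (RIG-I) rose from 3.4 ± 0.943 to 7.18 ± 0.923, less than 1 log2 unit of the value plus 1.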

How the data were processed

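RNA was sequenced from 3 SW480-P and 3 SW480-LM3 libraries. The deposited values are a signal, read counts divided by 1 scaling factor per library. Whole reads were recovered for 100% of values within 0.05 read. LV5 values are TPM as deposited by the authors, of unknown depth. HISAT2 2.1.0 and Bowtie2 2.3.5 are named without a role in the submitters' processing notes. The counter, build and annotation were not given in the sources used here. limma 3.58.1 with a variance trend (R 4.3.3) was fitted to log2 of the signal plus 1 for genes reaching 1 in 3 or more libraries, with Benjamini-Hochberg adjustment over all tested genes at 0.05. The fit was run on simulated data in which few, well expressed genes changed and values were scaled by library totals. That setting differs from these data, so it does not bear on the share of genes called or on the scale. The 34 gene lists, the 25 families defined by symbol and the comparison were chosen with earlier results of these data known, and the pattern for homeobox genes was corrected after its matches were seen.

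Genes were named by rule: NID1, marked members of the lists, up to 4 members per list and direction with the largest log2 difference among those past 1 log2 unit, with a mean of at least 10 and no overlap, and outside the lists the 10 largest rises and falls with a mean of at least 50. Others are said to be chosen from their values. Intervals of low counts and floors of 3 reads cover counting error only. Alternatives were other scalings, pseudocounts and filters, no variance trend, a replicate block, edgeR 4.0.16 and DESeq2 1.42.0 on recovered reads, and each library left out in turn. Some members of the lists are not reported here by name, though they stay in the counts.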

Additional observations from a re-analysis of the deposited data

How the results depend on the processing

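The counts of called genes were 12749, with 3479 higher and 3113 lower by at least 1 log2 unit, and each other setting gave counts within 1.5 times of them. Leaving out 1 library gave 12485 to 12563 called genes, 3444 to 3515 higher and 3099 to 3140 lower. The replicate block gave 12725, 3479 and 3114, edgeR 12687, 3852 and 3438, and DESeq2 12386, 3805 and 3459. Same-numbered libraries shared only a number and were not paired (r of deviations -0.0474, 0.00479 and -0.0101). A pseudocount of 5 gave the fewest, 2355 higher and 2173 lower.

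Of 176 genes named, 8 changed their call or sign under an alternative, all with a difference under 1 log2 unit. With quantile normalization the log2 difference was -0.094 for CDX2. With library totals it was 0.052 for CSF2, 0.21 for HES1 and 0.0495 for ID1, and DESeq2 gave -0.00049 for MCL1. Of the list medians 15 changed sign under an alternative, 9 of them with a mean of at least 5, where fewer members are tested. With that filter the median of potassium channels went from 0.84 to -3.02, of lipid-anchored surface proteins from 0.17 to -1.74, of desmosome and gap junction genes from -0.16 to 0.56 and of the Notch list from -0.01 to 0.40. The Notch median was 0.26 with library totals and 0.03 without SW480-P replicate 2. The cause of these shifts was not tested. Depth limits genes near 0: 1 read was worth under 0.1 of the normalised count, and fitted differences there depend on the pseudocount.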

Other observations

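Genes outside all lists gave further large differences. CALB1, a calcium-binding protein of neurons and kidney, rose 359.7-fold, from 0.445 ± 0.282 to 159.9 ± 2.66 (SD, n = 3). CA9, a hypoxia-induced carbonic anhydrase of the cell surface, rose 183-fold, from 1.24 ± 0.503 to 227 ± 16.4. RASSF6, a member of a family of Ras-binding proteins, rose 694-fold, from 0.172 ± 0.0879 to 119 ± 4.06. MACC1, named for its association with colon cancer metastasis, was at 0.783, 0.757 and 0.493 in SW480-P and 135, 138 and 135 in SW480-LM3, and the groups did not overlap. Among falling genes, the secreted proteins EFEMP1 and IGFBP7 were at 251 ± 2.37 and 185 ± 5.49 in SW480-P and had 1 read each over the 3 SW480-LM3 libraries. The protease inhibitors SPINK5 and SPINK6 fell together, from 263 ± 9.25 and 167 ± 2.58 to 0.342 ± 0.0145 and 0 reads. OLR1, a scavenger receptor for oxidised lipoprotein, and GNG11, a G protein subunit, each went to 0 reads from 149 ± 7.04 and 128 ± 6.49.

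Some genes that rose in SW480-LM3 were present at a low level in SW480-P but under 1 TPM in LV5, chosen here after their values were seen. HNF4A was at 4.86 ± 0.438 in SW480-P and 0.557 TPM in LV5, VIL1, the microvillar protein villin, at 10.1 ± 1.11 and 0.187 TPM, and PROX1 at 4.997 ± 0.249 and 0.070 TPM. CDX2, which was not called between SW480-P and SW480-LM3, was at 16.4 ± 2.66 in SW480-P and 0.177 TPM in LV5. The scales of these values differ, and no test was run.

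Genes grouped by chromosome had unlike medians. Chromosome 5 had the lowest median log2 difference, -0.48 over 642 genes, followed by chromosome 18 with -0.45 over 194 genes. Chromosomes 22, 16, 17 and 20 had the highest, at 0.56, 0.48, 0.42 and 0.41. The medians moved with GC content: across 23 chromosomes Spearman's rho between median GC and median difference was 0.594, a description over points that share the same 6 libraries. With a trend on GC removed, an alternative chosen after seeing the data, the medians were -0.31 for chromosome 5, -0.23 for chromosome 18, 0.20 for chromosome 22, 0.27 for chromosome 16, 0.15 for chromosome 17 and 0.31 for chromosome 20. The order changed with it: chromosome 9, at -0.30, was then lower than chromosome 18, while chromosomes 13 and X, at 0.31 and 0.27, were among the highest.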
